A study of Homo sapiens with 36 samples.

Results

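The ERBB family was followed in 3 human cancer cell lines: its 4 receptor genes EGFR, ERBB2, ERBB3 and ERBB4, and the 6 genes AREG, EREG, TGFA, HBEGF, BTC and EGF, which encode ligands of EGFR. Members were chosen by gene symbol, and all 10 were found among the 26475 symbols counted. Poly-A RNA was sequenced from 36 libraries in 12 groups of 3 biological replicates. The lines are MDA-MB-468, from a breast cancer of basal-like type, PANC-1, from a carcinoma of the pancreas, and WiDr, from a colorectal adenocarcinoma. Each received a lentiviral pGIPZ short hairpin RNA, either non-silencing (the control hairpin) or 1 of 2 hairpins against the same target, called hairpin 1 and hairpin 2. WiDr cells were in addition given a non-targeting CRISPR guide RNA (the control guide) or 1 of 2 targeting guides, guide 1 and guide 2. All groups, controls included, therefore carry a vector, and no uninfected cells enter the comparisons. Pools and clones of infected cells are not told apart in the labels. The PANC-1 libraries of the second hairpin are called the libraries labelled hairpin 2, and a direction drawn from them rests on that label.

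ERBB receptors are membrane tyrosine kinases that signal as pairs, mainly through the RAS to ERK and the PI3K to AKT routes. EGFR binds the 6 ligands listed above, of which HBEGF, BTC and EREG also bind ERBB4. ERBB2 has no known ligand and acts as the favoured partner, and ERBB3 has a weak kinase and depends on its partner. The ligands are made as membrane-anchored precursors that are released by ADAM-type proteases, so RNA levels do not give the amount of active ligand. AREG and EREG are well known as markers of EGFR dependence in colorectal tumours, and MDA-MB-468 is a line known for its amplified EGFR gene.

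Library totals ran from 28371119 to 49237321 counts. Levels are given as CPM, the count of a gene divided by its library's total after TMM scaling of all 36 libraries together, and fold changes are log2 values from a separate edgeR fit of each experiment, in which a call means an adjusted p under 0.05. The lines matched their labels in part. In MDA-MB-468 controls 5 of 6 basal breast markers reached 1 CPM. In WiDr controls 3 of 6 (hairpin) and 4 of 6 (guide) colorectal markers did so, and GPA33 was under 0.1 CPM. In PANC-1 controls 6 of 6 markers of a ductal carcinoma line reached 1 CPM, but so did 5 of 6 in each other control group. VIM was highest in PANC-1 (3505 to 4469 CPM), while KRT7 had 5.70 to 8.96 CPM there against 1083 to 1547 in MDA-MB-468. CDX2 of the colorectal list was higher in PANC-1 (9.36 to 11.8 CPM) than in WiDr with the control hairpin (2.58 to 3.16). GABRP of the basal breast list was higher in WiDr with the control hairpin (48.1 to 52.9 CPM) than in MDA-MB-468 (26.7 to 29.2). The leukocyte genes PTPRC and CD3E and the fibroblast genes COL1A2 and DCN had means under 0.1 CPM in each control group. PTPRC had 0.112 CPM in 1 MDA-MB-468 library. However, LYZ, which was on the leukocyte list, stood at 1527.8 to 2038 CPM in WiDr, and CD68 of that list at 75.3 to 91.3 in PANC-1. COL1A1 of the fibroblast list had 8.17 to 10.8 CPM in MDA-MB-468 controls and 9.60 to 19.5 in PANC-1 controls. With the WiDr control hairpin COL1A1 had 1.45 to 1.63 CPM and LUM of the same list 2.18 to 2.80. Ribosomal RNA took 4.61% to 9.60% of counts in PANC-1 controls against 0.838% to 2.60% with the 2 hairpins, and 5.38% to 10.2% with WiDr hairpin 2 against 1.27% to 2.71% in the other WiDr hairpin groups.

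The lines differed in which member led. Per kb of the longest annotated transcript, EGFR was the most abundant member in MDA-MB-468 controls, EGFR and ERBB2 in PANC-1 controls, and the ligand AREG in WiDr controls. In MDA-MB-468, EGFR stood at 114 ± 75.9 CPM per kb (SD, n = 3), far above ERBB3 at 12.1, TGFA at 12.04 and ERBB2 at 10.7, which overlapped one another. In PANC-1, EGFR at 9.69 ± 8.52 and ERBB2 at 9.15 ± 1.26 CPM per kb overlapped, HBEGF followed at 1.63, and each other member was at or under 0.1503. In WiDr with the control hairpin, AREG reached 315 ± 2.13 CPM per kb and EREG 77.4 ± 5.03, ahead of ERBB3 at 34.3, ERBB2 at 28.3, TGFA at 26.8, EGFR at 5.53 and HBEGF at 4.43. Lengths are of GENCODE 29 transcripts, and with the union of exons in their place TGFA came before ERBB3 in both MDA-MB-468 and WiDr with the control hairpin.

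**Figure D1:**
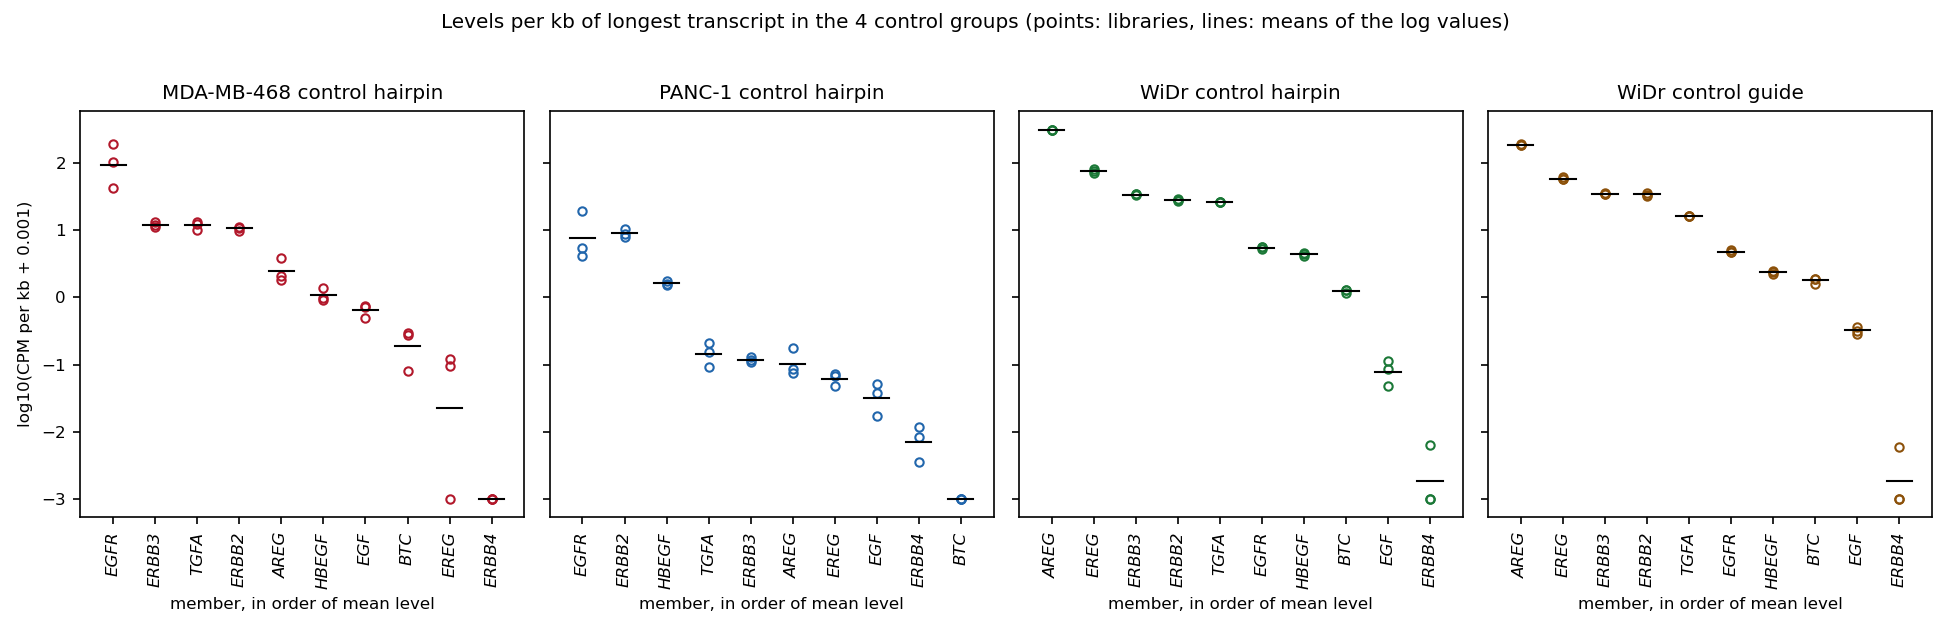
Levels of the 10 members in the 4 control groups, as log10 of CPM per kb of the longest transcript plus 0.001, ordered within each group; points are libraries and lines are means of the log values. EGFR leads in MDA-MB-468 and AREG, then EREG, in WiDr.

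Among the receptors, EGFR (chromosome 7, hg38 55019021 to 55211628) was highest in MDA-MB-468. Its control libraries stood at 414, 1899.6 and 1043.6 CPM, those of PANC-1 at 192, 40.9 and 53.0, and those of WiDr at 52.4, 54.7 and 55.9. Every MDA-MB-468 control library was above every PANC-1 and WiDr control library, though the MDA-MB-468 replicates themselves spanned 4.58-fold. The log2 difference between control hairpins was 3.61 (SE 0.697, edgeR adjusted p = 0.00117) against PANC-1 and 4.38 (SE 0.723, adjusted p = 0.000416) against WiDr. PANC-1 and WiDr controls did not pass against each other (0.77, SE 0.637, adjusted p = 0.299). Without PANC-1 control replicate 1 that difference changed sign, to -0.29.

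ERBB2 (chromosome 17, 39687914 to 39730426) varied less between lines. Its control libraries stood at 49.02, 55.4 and 53.7 CPM in MDA-MB-468. Those of PANC-1 had 51.9, 39.6 and 43.8 CPM and those of WiDr 134, 145 and 139. MDA-MB-468 and PANC-1 were below WiDr, by log2 values of -1.39 (SE 0.120) and -1.68 (SE 0.121). The first 2 lines overlapped, and their difference of 0.29 (SE 0.118, edgeR adjusted p = 0.0487) lost its call in 7 of 9 fits that left out a library, with values from 0.19 to 0.42. ERBB3 (chromosome 12, 56076799 to 56103505) separated the lines most among the receptors. It had 66.3, 78.6 and 70.5 CPM in MDA-MB-468 controls, 208, 204 and 196 in WiDr controls, and 0.676, 0.764 and 0.632 in PANC-1 controls, where it rested on 21 to 26 counts a library. The 3 lines did not overlap, with MDA-MB-468 above PANC-1 by 6.77 (SE 0.129) on the log2 scale and PANC-1 at -8.25 (SE 0.134) against WiDr. ERBB4 (chromosome 2, 211375717 to 212538841) had 0 to 16 counts a library over all 36 libraries and was not tested in any experiment, so its level was not resolved at this depth.

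The ligands did not all follow the lines in the same order. AREG encodes amphiregulin and EREG epiregulin, and the 2 genes lie in tandem on chromosome 4 with starts 80.0 kb apart (AREG 74445134 to 74455009, EREG 74365143 to 74388751, both on the plus strand). AREG control libraries stood at 389, 390.3 and 394 CPM in WiDr, at 4.77, 2.28 and 2.62 in MDA-MB-468, and at 0.104, 0.214 and 0.0902 in PANC-1, where 3 to 7 counts were found. EREG stood at 379, 333 and 361 CPM in WiDr controls, at 0, 0.555 and 0.432 in MDA-MB-468 and at 0.312, 0.214 and 0.331 in PANC-1. For both genes every WiDr library was above every library of the other lines, and the log2 differences of the other lines from WiDr ran from -11.5 to -6.90. AREG was higher in MDA-MB-468 than in PANC-1 by 4.62 (SE 0.406, edgeR adjusted p = 5.53e-06), and EREG did not pass between them (0.26, SE 0.687, adjusted p = 0.755) except without MDA-MB-468 control replicate 1, the library with 0 counts (0.85, adjusted p = 0.0265).

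AREG and EREG are the members that changed in the same direction most often, so the bases before their starts are shown. They are the bases directly upstream of the GENCODE 29 start given above, taken from RefSeq's GRCh38.p14 sequence, plus strand, 5′ to 3′, at chr4:74444886-74445133 for AREG and chr4:74364895-74365142 for EREG. Capitals mark a full cyclic AMP response element (CRE, TGACGTCA) and the TATA motif TATAAA, searched on both strands.

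AREG: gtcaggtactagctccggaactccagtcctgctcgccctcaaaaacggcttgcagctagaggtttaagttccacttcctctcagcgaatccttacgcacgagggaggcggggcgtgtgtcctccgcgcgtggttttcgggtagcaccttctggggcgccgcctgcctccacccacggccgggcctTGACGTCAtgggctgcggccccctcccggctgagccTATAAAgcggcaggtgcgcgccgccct

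EREG: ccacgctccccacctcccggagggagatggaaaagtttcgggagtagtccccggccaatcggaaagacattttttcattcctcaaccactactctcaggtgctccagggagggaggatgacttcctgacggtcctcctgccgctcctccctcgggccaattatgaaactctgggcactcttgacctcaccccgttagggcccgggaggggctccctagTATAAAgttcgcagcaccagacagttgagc

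Relative to that start the CRE of AREG began at -63, and the TATAAA of AREG and EREG began at -27 and -30. Of 35116 RefSeq windows of the same length, taken over all genes listed, 1.64% held TGACGTCA and 10.7% held TATAAA. The AP-1 motif TGANTCA, found in 6.56% of windows, was in neither. RefSeq entries were found for 9 of 10 members. Among the other 7 no window held TGACGTCA, and TATAAA was found only before a further EGFR start inside the gene. A match is a description of these letters, and no binding was measured.

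TGFA, which encodes transforming growth factor alpha (chromosome 2, 70447280 to 70554193), stood at 43.6, 58.2 and 53.9 CPM in MDA-MB-468 controls, 115.1, 115.3 and 116 in WiDr controls and 0.884, 0.397 and 0.662 in PANC-1 controls. The lines did not overlap, and MDA-MB-468 was above PANC-1 by 6.37 (SE 0.233) on the log2 scale. HBEGF, the heparin-binding ligand (chromosome 5, 140332843 to 140346631), was low throughout, at 2.60 ± 0.614 CPM in MDA-MB-468, 3.899 ± 0.230 in PANC-1 and 10.6 ± 0.563 in WiDr controls (SD, n = 3), and the difference of MDA-MB-468 from PANC-1 (-0.52) lost its call without MDA-MB-468 control replicate 1 (-0.44) or 2 (-0.40) or PANC-1 control replicate 3 (-0.49). BTC, betacellulin (chromosome 4, 74744759 to 74794686), had 0 counts in the 3 PANC-1 controls. Set against 3 counts per library, the mean of the MDA-MB-468 controls was at least 7.30-fold and that of the WiDr control hairpin at least 41.8-fold higher. The MDA-MB-468 controls had only 8, 28 and 27 counts. EGF (chromosome 4, 109912884 to 110012266) was highest in MDA-MB-468, at 3.22 ± 0.701 CPM, against 0.168 ± 0.0840 in PANC-1 and 0.397 ± 0.164 in WiDr with the control hairpin, and PANC-1 against WiDr (-1.31, SE 0.477) lost its call in 4 of 9 fits that left out a library, with -1.35 to -0.97 in those fits. Those libraries were PANC-1 control replicates 1 and 3 and WiDr control replicates 2 and 3. In all, 8 of 9 tested members passed between MDA-MB-468 and PANC-1, 9 of 9 between MDA-MB-468 and WiDr, and 8 of 9 between PANC-1 and WiDr, beside 69.5%, 71.7% and 72.6% of all tested genes.

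**Figure D2:**
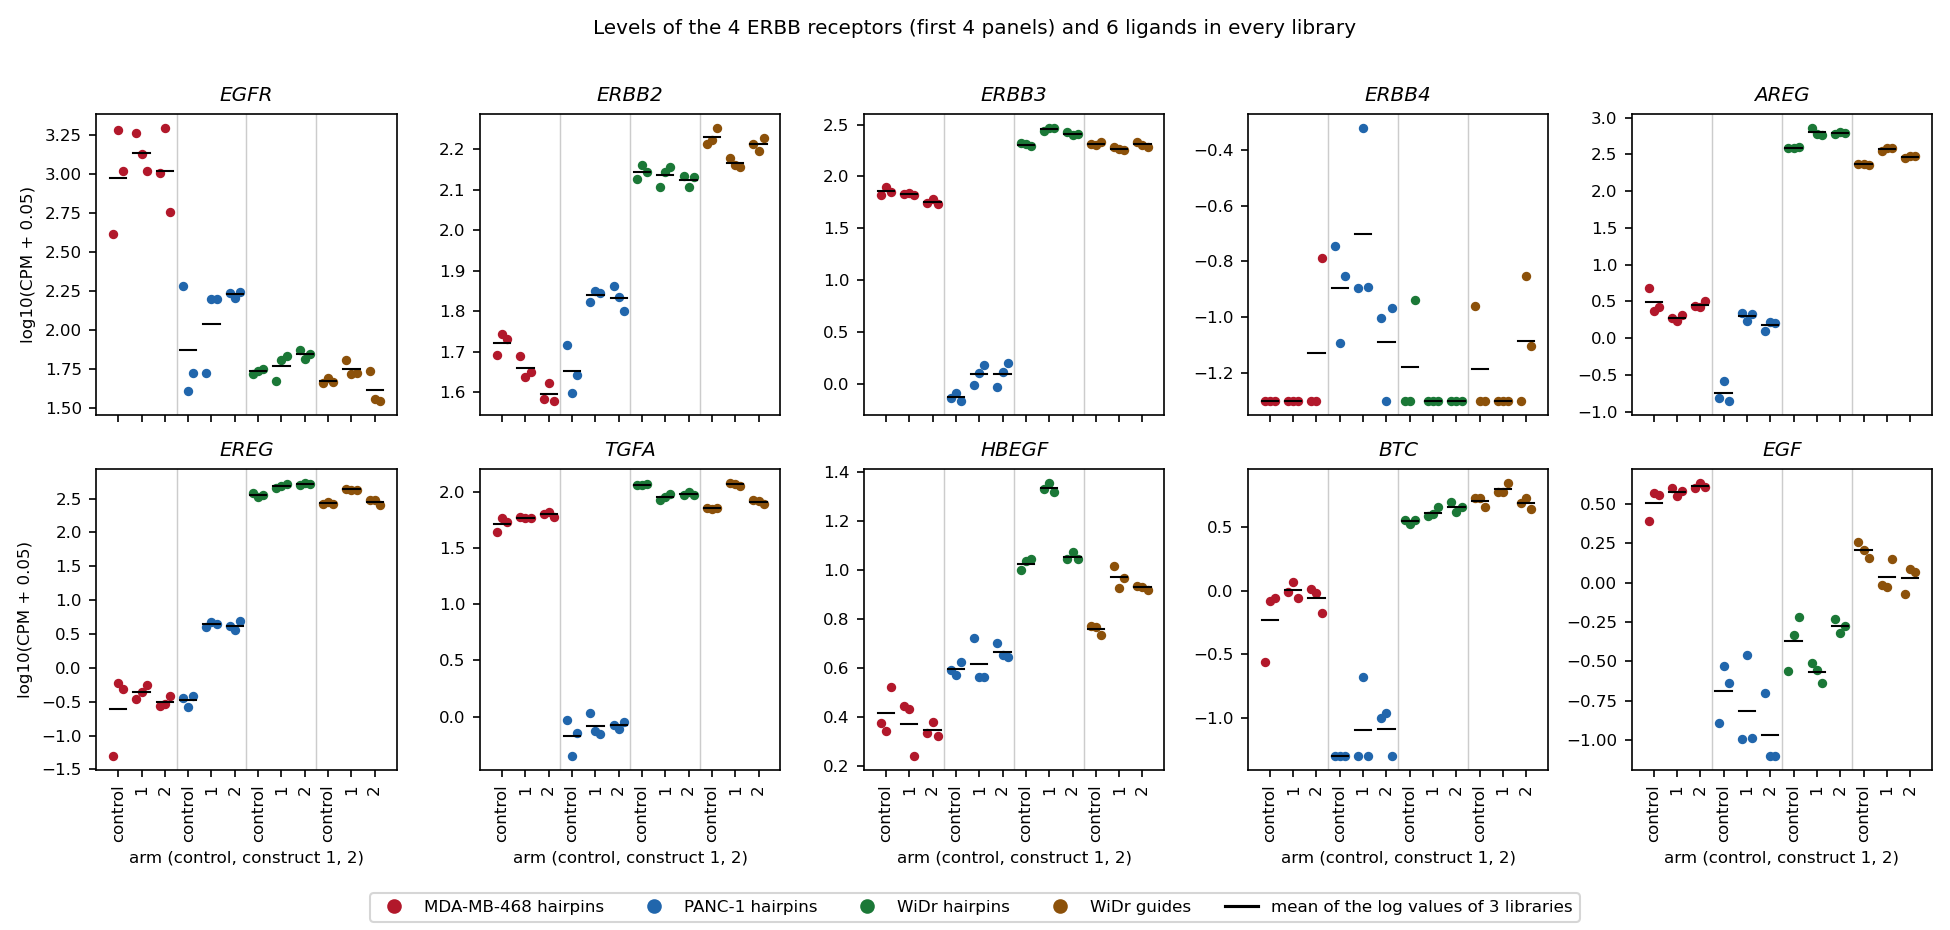
Levels of each member in all 36 libraries, as log10 of CPM plus 0.05, with 1 point per library and a line at the mean of the log values of each group; axes differ between panels, and values at the bottom of the ERBB4 and BTC panels are libraries with 0 counts. The lowest WiDr library has 229.8 CPM of AREG and the highest library of the other lines 4.77, and EGFR spreads widely within the MDA-MB-468 and PANC-1 groups.

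In MDA-MB-468 and in 2 of 3 PANC-1 groups EGFR differed between replicates more than ERBB2 and ERBB3 did. In WiDr controls and in PANC-1 libraries labelled hairpin 2 it spread less than ERBB2. With each WiDr hairpin and guide EGFR spread more than both, at 1.14-fold to 1.55-fold against 1.06-fold to 1.12-fold for ERBB2 and ERBB3. Over the 9 MDA-MB-468 libraries it ran from 414 to 1972.6 CPM, and over the 9 PANC-1 libraries from 40.9 to 192. The share of counts that fell on 1445 genes with a transcript of at least 8000 bases, members and ribosomal RNA left out, moved with it. That share was 6.06% in MDA-MB-468 control replicate 1, the library with the least EGFR, and 9.14% and 9.07% in the control and hairpin 2 replicates 2, the libraries with the most. In PANC-1 the 3 libraries with 40.9 to 53.0 CPM of EGFR (control replicates 2 and 3 and hairpin 1 replicate 1) had shares of 6.70% to 6.97%, and the other 6 had 9.45% to 10.4%. The rank of EGFR equalled the rank of the share in 7 of 9 libraries in each of these experiments, and in 4 of 9 and 3 of 9 in the WiDr hairpin and guide experiments, where EGFR spanned only 1.58-fold and 1.83-fold. EGFR has a longest transcript of 9821 bases, the second longest among the members after ERBB4. A correction of each library for a trend with transcript length was added after these data were seen. It left EGFR without a call in MDA-MB-468 (0.34 and 0.10) and PANC-1 (0.37 and 0.74), lowered WiDr hairpin 2 from 0.36 to 0.21 (edgeR adjusted p = 0.0204) and raised guide 1 from 0.27 to 0.34, which then passed (adjusted p = 0.0298).

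**Figure D3:**
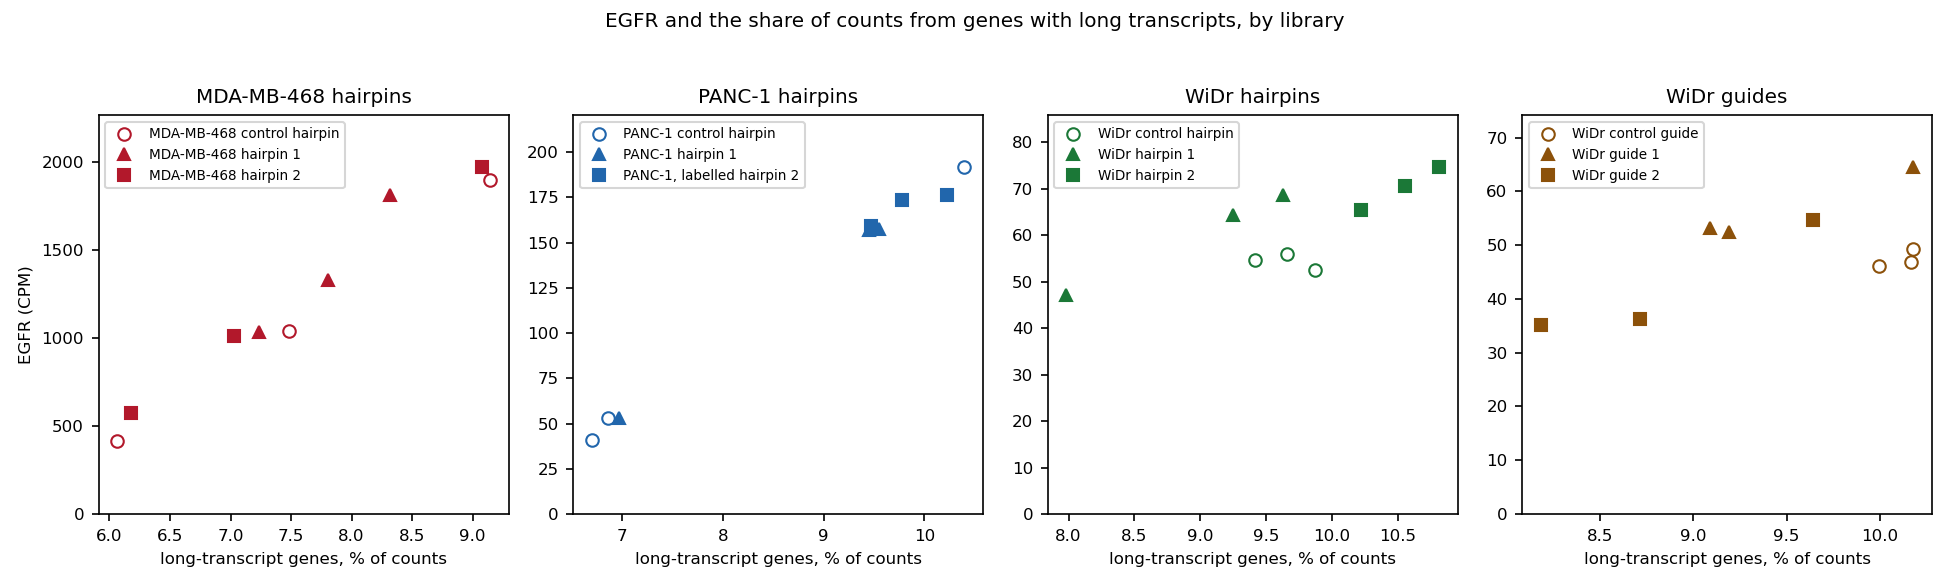
EGFR level in CPM (vertical axis, from 0) against the percent of counts on genes with a transcript of at least 8000 bases (horizontal axis), 1 point per library, in each experiment; open circles are controls. In MDA-MB-468 and PANC-1 the points climb together across all 3 groups, and the 3 low PANC-1 libraries stand apart from the other 6.

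PANC-1 held the largest changes, in the ligands AREG and EREG. AREG rose from 0.104, 0.214 and 0.0902 CPM in the control libraries (3 to 7 counts) to 2.12, 1.66 and 2.07 with hairpin 1 (62 to 82 counts) and 1.19, 1.63 and 1.57 in libraries labelled hairpin 2 (48 to 56 counts). The groups did not overlap, and the log2 fold changes were 3.84 (SE 0.306, edgeR adjusted p = 3.50e-05) and 3.42 (SE 0.312, adjusted p = 6.27e-05). EREG rose from 0.312, 0.214 and 0.331 CPM to 4.01, 4.64 and 4.43 with hairpin 1 and 4.17, 3.55 and 4.85 in libraries labelled hairpin 2. Those are 7 to 12 counts a library against 122 to 173, with log2 fold changes of 3.92 (SE 0.206, adjusted p = 3.53e-06) and 3.86 (SE 0.207, adjusted p = 4.58e-06). Even so, EREG with hairpin 1 stayed at 4.36 ± 0.319 CPM (SD, n = 3), against 358 ± 23.2 in WiDr controls.

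Among the PANC-1 receptors, ERBB2 rose from 51.9, 39.6 and 43.8 CPM to 66.5, 70.6 and 69.9 with hairpin 1 and 72.6, 68.5 and 63.1 in libraries labelled hairpin 2. The controls were below both other groups, by 0.62 (SE 0.111, edgeR adjusted p = 0.00295) and 0.60 (SE 0.111, adjusted p = 0.00335) on the log2 scale. ERBB3 passed narrowly, from 21 to 26 counts in the controls to 36 to 56 and 35 to 53 counts, with 0.81 (SE 0.270, adjusted p = 0.0487) and 0.82 (SE 0.271, adjusted p = 0.0431). That call was lost in 6 of 9 and 7 of 9 fits that left out a library, at 0.63 to 0.87 and 0.61 to 0.89, with adjusted p up to 0.166 and 0.148. With hairpin 1 the libraries were each of the 3 controls, hairpin 1 replicates 2 and 3 and labelled hairpin 2 replicate 2, and with the second label they were the same and labelled hairpin 2 replicate 3. TGFA stood at 0.648 ± 0.244 CPM in the controls against 0.796 ± 0.209 and 0.789 ± 0.0576, and HBEGF at 3.899 ± 0.230 against 4.15 ± 0.916 and 4.604 ± 0.341 (SD, n = 3), and neither passed. BTC and EGF had too few counts to be tested.

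EGFR in PANC-1 had 192, 40.9 and 53.0 CPM in the controls, 53.0, 157 and 158 with hairpin 1 and 173, 159 and 176 in libraries labelled hairpin 2, and did not pass (log2 0.37, SE 0.572, and 0.84, SE 0.574). It passed without control replicate 1 alone, at 1.38 (edgeR adjusted p = 0.0402) and 1.84 (adjusted p = 0.0123). With hairpin 1 replicate 1 also left out the values were 1.75 and 1.85. These 2 libraries were left out after the EGFR values and the long-transcript shares had been seen, so those values are a description. In total 4 of 7 tested PANC-1 members passed with each hairpin, all 4 of them higher and the same 4 genes, beside 30.2% and 33.4% of all tested genes in either direction, 16.2% and 16.7% higher and 14% and 16.7% lower. No member passed between the 2 hairpins (edgeR and DESeq2 both 0 of 7, 0 at an unadjusted p under 0.05), beside 0.106% of all genes. Ribosomal RNA was higher in the PANC-1 controls, as given above, and its part in these differences was not tested.

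**Figure D4:**
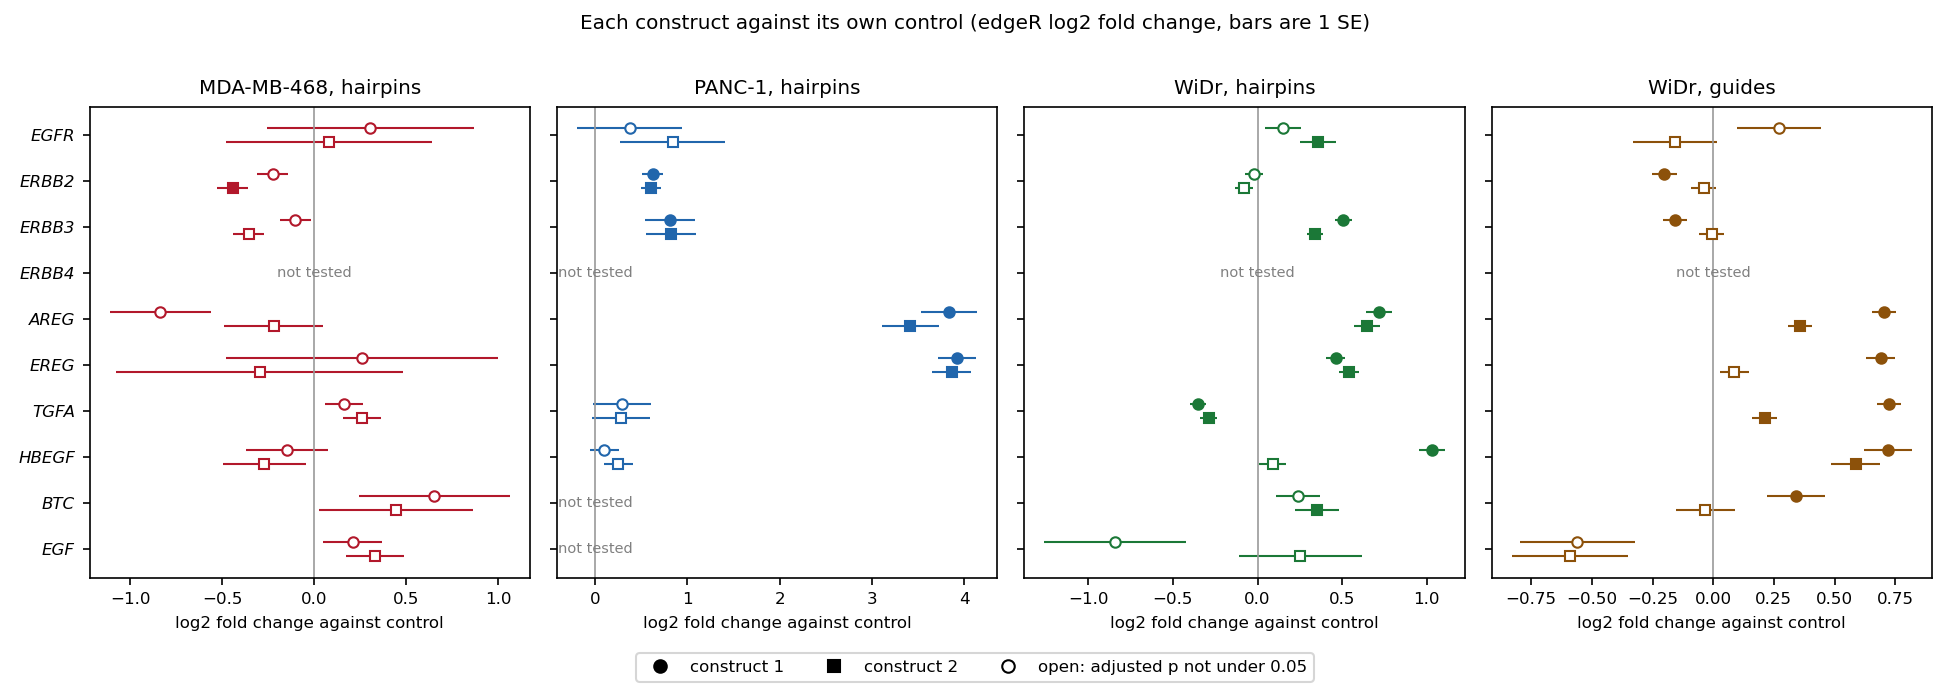
Log2 fold change of each member against its own control (horizontal axis, scale differs between panels), with bars of 1 SE; circles are construct 1, squares construct 2, filled where the edgeR adjusted p was under 0.05. AREG and EREG reach 3.42 to 3.92 in PANC-1 and 0.09 to 0.72 in WiDr.

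In WiDr with hairpins, AREG, EREG and ERBB3 rose with both hairpins and TGFA fell with both. AREG went from 389, 390.3 and 394 CPM to 734, 604 and 580.5 with hairpin 1 and 596, 644 and 610.5 with hairpin 2, with no overlap with the controls (log2 0.72, SE 0.0779, and 0.65, SE 0.0779; edgeR adjusted p = 3.40e-06 and 1.13e-05). EREG went from 379, 333 and 361 CPM to 459, 487 and 526 and to 508, 546 and 516 (0.46, SE 0.0574, and 0.54, SE 0.0574). ERBB3 went from 208, 204 and 196 CPM to 273, 291 and 296 and to 268, 249 and 257 (0.51 and 0.34, SE 0.0492). Again all hairpin libraries lay above all controls. TGFA went the other way, from 115.1, 115.3 and 116 CPM to 84.3, 90.3 and 95.3 and to 93.9, 98.3 and 93.1 (-0.35, SE 0.0484, and -0.29, SE 0.0483).

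HBEGF separated the 2 WiDr hairpins. It stood at 9.93, 10.8 and 10.997 CPM in the controls, 21.2, 22.6 and 20.6 with hairpin 1 and 11.03, 11.8 and 11.05 with hairpin 2. Only hairpin 1 passed, at 1.03 (SE 0.0754, edgeR adjusted p = 2.71e-08) against 0.09 (SE 0.0787, adjusted p = 0.384) for hairpin 2, and the difference between hairpins itself passed (-0.94, SE 0.0746, adjusted p = 1.15e-07). ERBB3 was lower with hairpin 2 than with hairpin 1 by 0.17 (SE 0.0490, adjusted p = 0.0115), a call that was lost without hairpin 2 replicate 2 (-0.13). EGF was higher by 1.09 (SE 0.403, edgeR adjusted p = 0.0383) on 7 to 20 counts a library. It lost its call with DESeq2 and without control replicate 2, hairpin 1 replicate 2 or 3 or any hairpin 2 replicate, at 0.936 to 1.199 in those fits. Against the control, EGF with hairpin 1 passed only without control replicate 1 (-1.12, adjusted p = 0.0418). AREG did not pass between the hairpins (-0.07, SE 0.0774). With a correction for transcript length, added after the data were seen, it turned to 0.15 (adjusted p = 0.00629).

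EGFR rose with WiDr hairpin 2, from 52.4, 54.7 and 55.9 CPM to 74.6, 65.3 and 70.5 (0.36, SE 0.105, edgeR adjusted p = 0.0159). That call was lost without control replicate 1 or 2 or hairpin 2 replicate 1, at 0.31 to 0.36, with no filter on low counts (adjusted p = 0.0589) and with all 36 libraries in 1 fit (adjusted p = 0.654). With hairpin 1 EGFR stood at 47.1, 64.4 and 68.6 CPM and did not pass, but did so without hairpin 1 replicate 1 (0.29, adjusted p = 0.000159), the library with the lowest long-transcript share of the experiment (7.98%). Between the hairpins it passed only without hairpin 1 replicate 3 (0.30, adjusted p = 0.0329). BTC rose narrowly with hairpin 2, from 3.497 ± 0.141 to 4.51 ± 0.408 CPM (SD, n = 3; 0.35, SE 0.129, adjusted p = 0.0361). Its call was lost without any of the 3 controls or hairpin 2 replicate 1 or 3 (0.28 to 0.37), and with DESeq2. ERBB2 stayed at 128 to 145 CPM over the 9 libraries and did not pass (-0.02, SE 0.0528, and -0.08, SE 0.0528). In total 5 of 9 tested members passed with hairpin 1 (4 higher, 1 lower) and 6 of 9 with hairpin 2 (5 higher, 1 lower), beside 48% and 44.7% of all tested genes. Of all genes, 24.1% were higher and 23.9% lower with hairpin 1, and 22.2% and 22.5% with hairpin 2. With 9 members these counts are near that background. Between the hairpins 3 of 9 passed beside 42.4%. Ribosomal RNA was higher with hairpin 2, as given above, and its part was not tested.

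With guides in WiDr, the ligands AREG, TGFA and HBEGF rose with both guides, and EREG and BTC with guide 1. Of the 6 guide libraries, 4 carry a genotype label that names the other guide, and the titles were used here. AREG stood at 237, 235 and 230 CPM with the control guide, 358, 392 and 382 with guide 1 and 281, 305 and 301 with guide 2, in 3 groups that did not overlap (log2 0.70 and 0.36, SE 0.0504 and 0.0503; edgeR adjusted p = 1.30e-08 and 8.18e-05). TGFA stood at 71.8, 70.6 and 71.4 CPM, then 120.3, 117 and 112 and then 84.4, 82.8 and 77.4 (0.72, SE 0.0511, and 0.21, SE 0.0515). HBEGF stood at 5.86, 5.81 and 5.39 CPM, then 10.3, 8.42 and 9.24 and then 8.59, 8.48 and 8.23 (0.72, SE 0.0983, and 0.59, SE 0.0993). With all 36 libraries in 1 fit, guide 2 lost its call for AREG (0.34, edgeR adjusted p = 0.108) and TGFA (0.19, adjusted p = 0.263). EREG stood at 266, 285 and 266 CPM, rose to 446, 428 and 428 with guide 1 (0.69, SE 0.0601) and had 298, 301 and 255 with guide 2, which overlapped the controls (0.09, SE 0.0601, edgeR adjusted p = 0.311) and passed without guide 2 replicate 3 (0.14, adjusted p = 0.0279). BTC rose with guide 1 from 5.05 ± 0.454 to 6.34 ± 0.643 CPM (0.34, SE 0.119), and that call was lost without control guide replicate 3 (0.27) or guide 1 replicate 3 (0.26).

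The receptors moved little with guides. ERBB2 fell with guide 1, from 163, 167 and 179 CPM to 151, 145 and 143 (-0.20, SE 0.0509, edgeR adjusted p = 0.00437). ERBB3 fell from 205, 203 and 215 to 191, 183 and 179 (-0.16, SE 0.05004, adjusted p = 0.0172), a call lost without control guide replicate 3 (-0.14) or guide 1 replicate 3 (-0.14). Neither passed with guide 2. EGFR had 46.1, 49.3 and 46.8 CPM with the control guide, 64.5, 52.4 and 53.3 with guide 1 and 54.6, 36.2 and 35.2 with guide 2, and passed with neither. With guide 1 it passed with the length correction, as given above, and with the construct fitted alone (0.27, edgeR adjusted p = 0.0152). Without guide 2 replicate 1 it passed with both, in opposite directions, at 0.27 (adjusted p = 0.00676) for guide 1 and -0.39 (adjusted p = 0.00306) for guide 2. EGF stood at 1.57 ± 0.194 CPM in the controls against 1.06 ± 0.269 and 1.03 ± 0.205 (SD, n = 3) and did not pass, though it did with guide 1 without guide 1 replicate 3 (-0.79, adjusted p = 0.0292). In total 7 of 9 tested members passed with guide 1 (5 higher, 2 lower) and 3 of 9, all higher, with guide 2, beside 41.6% and 25.5% of all tested genes. Of all genes, 21.4% were higher and 20.3% lower with guide 1, and 14.1% and 11.3% with guide 2.

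The guides also differed from each other. Guide 2 lay below guide 1 for AREG (-0.35, SE 0.05005), EREG (-0.60, SE 0.0600), TGFA (-0.51, SE 0.0507) and BTC (-0.37, SE 0.118) and above it for ERBB2 (0.16, SE 0.0509) and ERBB3 (0.15, SE 0.05001), 6 of 9 beside 34.4% of all tested genes. Only AREG, EREG and TGFA kept this call in every fit that left out a library. ERBB2 lost it without guide 1 replicate 2 (0.16) or 3 (0.14), ERBB3 without guide 1 replicate 2 (0.15) or 3 (0.13) or guide 2 replicate 1 (0.12), and BTC without guide 1 replicate 3 (-0.29) or guide 2 replicate 3 (-0.30). EGFR gained it without guide 2 replicate 1 (-0.66) and with the length correction (-0.38, edgeR adjusted p = 0.0239). With no filter on low counts ERBB2 (0.14) and ERBB3 (0.13) lost it, and with all 36 libraries in 1 fit EREG and TGFA alone kept it. By the genotype label instead of the title, 2 of 9 members passed with guide 1, 0 with guide 2 and 0 between the guides. The shares of all genes fell as well, to 8.86%, 0.832% and 0%.

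The WiDr control guide and control hairpin, which share the line but not the vector, were themselves apart. With the control guide AREG was lower (234 ± 3.80 against 391 ± 2.64 CPM; -0.77, SE 0.184, edgeR adjusted p = 0.00969), as were TGFA (71.3 ± 0.642 against 115 ± 0.434; -0.72, SE 0.140) and HBEGF (5.69 ± 0.259 against 10.6 ± 0.563; -0.92, SE 0.147), and EGF was higher (1.57 ± 0.194 against 0.397 ± 0.164; 1.95, SE 0.346; SD, n = 3). These are 4 of 9 tested members, beside 26.4% of all genes. EREG (-0.42, SE 0.242, adjusted p = 0.231) and ERBB2 (0.26, SE 0.104, adjusted p = 0.0927) did not pass with edgeR and did with DESeq2 (-0.40 and 0.27, adjusted p = 0.000505 and 0.0375), which called 6 of 9. The experiments were run with different vectors and controls, so vector and experiment cannot be told apart here.

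In MDA-MB-468 few members passed. With hairpin 1, 0 of 9 tested members passed (edgeR; 0 with DESeq2, 2 at an unadjusted p under 0.05), and with hairpin 2, 1 of 9, beside 2.27% and 3.49% of all tested genes. That gene was ERBB2, which fell from 49.02, 55.4 and 53.7 CPM to 38.2, 41.9 and 37.8 (-0.44, SE 0.0853, edgeR adjusted p = 0.0257), with no overlap, and stood at 48.98, 43.4 and 44.6 with hairpin 1 (-0.23, SE 0.0850, adjusted p = 0.287), where it passed with the transcript length correction (-0.26, adjusted p = 0.0292). With hairpin 2 the call was lost with the construct fitted alone (-0.44, adjusted p = 0.112) and when any of the control replicates 2 and 3, the hairpin 1 replicates 2 and 3 or the hairpin 2 replicates 1 and 3 was left out, at -0.40 to -0.44. ERBB3 had 55.3, 60.7 and 54.4 CPM with hairpin 2, below its 3 controls, and did not pass (-0.36, SE 0.0855, adjusted p = 0.0581). It passed with DESeq2 (-0.36, adjusted p = 0.00334) and without control replicate 1 (-0.40, adjusted p = 0.0477). AREG stood at 4.77, 2.28 and 2.62 CPM in the controls, 1.82, 1.67 and 2.00 with hairpin 1 and 2.70, 2.60 and 3.17 with hairpin 2, and did not pass (-0.84, SE 0.274, adjusted p = 0.199, and -0.22, SE 0.269). All 3 hairpin 1 libraries were below all 3 controls, and with all 36 libraries in 1 fit hairpin 1 passed (-0.82, edgeR adjusted p = 0.00482). EREG, at 0.269 to 0.398 CPM on average, gave standard errors of 0.738 and 0.781, so a change of the size seen in WiDr was not detectable. EGFR (0.31, SE 0.561, and 0.08, SE 0.561) was limited by its spread between replicates. TGFA stood at 51.9 ± 7.53 CPM in the controls, 58.8 ± 0.637 with hairpin 1 and 62.9 ± 3.60 with hairpin 2 (SD, n = 3), and HBEGF, BTC (0.65, SE 0.411, with hairpin 1) and EGF did not pass either. Between the 2 hairpins 0 of 9 passed (edgeR and DESeq2, 2 at an unadjusted p under 0.05), beside 0.437% of all genes.

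Over the 8 constructs AREG passed as higher in 6 and EREG in 5, and neither passed as lower in any. HBEGF passed as higher in 3 and BTC in 2 of the 6 in which it was tested. TGFA passed as higher in 2 and lower in 2, ERBB2 likewise, and ERBB3 as higher in 4 and lower in 1. EGFR passed in 1 and EGF in 0 of the 6 in which it was tested (edgeR; with DESeq2 also 0, and with both guides at an unadjusted p under 0.05). Constructs of an experiment share their controls, so these counts are not independent. By an interaction test of the mean effect of both constructs, 4 of 9 tested members differed between MDA-MB-468 and PANC-1, 5 of 9 between MDA-MB-468 and WiDr hairpins, 4 of 9 between PANC-1 and WiDr hairpins and 2 of 9 between WiDr guides and hairpins, beside 23.9%, 18.2%, 37.2% and 41.6% of all tested genes. The effect on AREG was lower in MDA-MB-468 than in PANC-1 (-4.13, SE 0.401, edgeR adjusted p = 2.51e-06) and higher in PANC-1 than in WiDr (2.99, SE 0.273).

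The other ERBB ligands differed by line. Neuregulins NRG1 and NRG2, which bind ERBB3 and ERBB4, were found mainly in PANC-1, at 12.3 ± 2.35 and 17.9 ± 1.10 CPM in the controls (SD, n = 3). NRG1 was at 0 counts in the WiDr hairpin libraries and at 0 to 6 counts in MDA-MB-468. NRG2 fell in PANC-1 to 13.04 ± 1.31 CPM with hairpin 1 and 11.3 ± 0.439 in libraries labelled hairpin 2 (log2 -0.45, SE 0.0992, and -0.66; edgeR adjusted p = 0.00834 and 0.00118), and NRG1 did not pass (0.20 and 0.32). In MDA-MB-468 NRG2 passed as lower with hairpin 2 only (-1.73, adjusted p = 0.00994), on 10 to 16 counts against 35 to 47. EPGN, epigen, was near 1 CPM in MDA-MB-468 alone (1.22 ± 0.256 in the controls), NRG3 had 0 to 11 counts in every library, and NRG4 ranged from 0.564 to 1.89 CPM on average over the groups and passed only with guide 2 in WiDr (-0.68, adjusted p = 0.0328).

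Of the sheddase genes, RHBDF2, which encodes the iRhom2 partner of ADAM17, rose in PANC-1 from 51.1 ± 6.06 to 83.9 ± 5.62 and 91.0 ± 7.63 CPM (SD, n = 3; log2 0.73 and 0.84) and fell in WiDr with hairpins (-0.33 and -0.38). It was 1 of 4 listed genes that passed in both PANC-1 comparisons, 25% beside 23.8% of all genes. ADAM17 itself did not pass with PANC-1 hairpin 1 (0.39, SE 0.226) and passed in libraries labelled hairpin 2 (0.75, SE 0.227, edgeR adjusted p = 0.0320). Among 20 adaptor, RAS, RAF, MEK, ERK and PI3K genes, 4 rose with both PANC-1 hairpins, among them MAPK3 (ERK1; 0.63 and 0.48), and 0 fell, 20% beside 23.8% of all genes. In WiDr 2 rose and 1 fell with both hairpins, with NRAS at 0.37 and 0.41, 15% beside 25.2%. With both guides 2 rose and 2 fell, with PLCG1 at -0.51 and -0.41, 20% beside 14.7%. In MDA-MB-468 none of these lists had a gene that passed with both hairpins (edgeR), beside 1.31% of all genes.

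The feedback regulator ERRFI1, which encodes the inhibitor of ERBB kinases MIG6, rose in PANC-1 from 380 ± 17.5 to 924 ± 39.4 and 1013 ± 36.8 CPM (SD, n = 3; log2 1.29 and 1.42). It also rose in WiDr with both hairpins (0.44 and 0.40) and both guides (0.63 and 0.14), in each case with an edgeR adjusted p under the threshold. Of the 18 tested feedback regulators in PANC-1, 3 (16.7%) rose with both hairpins and 0 fell, a share below the 23.8% of all genes that passed with both in the same direction. Among them was SPRY4 (0.74 and 1.10), an inhibitor of RAS to ERK signalling. With both hairpins and with both guides in WiDr, 10.5% of 19 feedback regulators passed, beside 25.2% and 14.7% of all genes. Of 16 tested ERK-responsive genes in PANC-1, 9 (56.2%) rose with both hairpins and 0 fell, against 23.8% of all genes there. Examples were the transcription factor gene ETV4 (0.79 and 0.98) and IER3 (0.64 and 0.68). In PANC-1 the median of this list was 0.43 and 0.48 against -0.02 and -0.005 over all genes. In WiDr with hairpins 1 ERK-responsive gene of 17 rose with both (UPP1, 0.59 and 0.45) and 3 fell, with the cyclin gene CCND1 at -0.60 and -0.65, against 25.2% of all genes. With guides 1 of 17 rose with both, again UPP1 (1.09 and 0.58), against 14.7%. Taken singly, guide 1 had 9 of these genes higher and 1 lower, beside 21.4% and 20.3% of all genes. Guide 2 had 4 and 4, beside 14.1% and 11.3%. WiDr hairpin 1 had 6 higher and 4 lower, beside 24.1% and 23.9%, and hairpin 2 had 3 and 8, beside 22.2% and 22.5%. MDA-MB-468 hairpin 1 had 0 higher and 3 lower and hairpin 2 had 1 and 0, beside 2.27% and 3.49% called in either direction. DUSP6, chosen after its values were seen, encodes an ERK phosphatase. It passed with WiDr hairpin 2 alone of the 8 constructs, going from 137 ± 2.45 to 97.8 ± 5.41 CPM (SD, n = 3; -0.49, SE 0.0517, edgeR adjusted p = 1.65e-06).

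Genes near EGFR, within 500 kb, were also higher in MDA-MB-468 controls. The 4 others with a mean of at least 1 CPM (SEC61G, LANCL2, VOPP1 and FKBP9P1) were all above PANC-1 and WiDr controls, with a median log2 difference of 3.27 and 4.74. In these contrasts 69.5% and 71.7% of all tested genes were called in either direction. LANCL2, which encodes a lanthionine synthetase C-like protein, stood 5.53 above PANC-1 (SE 0.0951), VOPP1 2.65 (SE 0.0812) and SEC61G 3.88 (SE 0.286). Their standard errors were below that of EGFR itself (0.697). FKBP9P1 is named as a pseudogene of FKBP9, with which it may share reads. Copy number was not measured in these samples.

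Around ERBB2, 5 of 21 other genes rose and 1 fell with PANC-1 hairpin 1, and 6 rose and 1 fell in libraries labelled hairpin 2. These counts are near the 30.2% and 33.4% of all tested genes called in those comparisons. The median of those 21 genes was 0.02 and 0.03. The largest difference was at GRB7, the gene of an SH2 adaptor that binds ERBB2, at 3.19 (SE 0.224) and 3.15 (SE 0.225). Around AREG, EREG and BTC, 3 other genes were measured. PARM1 rose in PANC-1 by 3.78 (SE 0.194) and 3.87 (SE 0.194), near the sizes for AREG and EREG. The other 2 did not follow: the chemokine gene CXCL2 (0.99 and 0.30) and the folate enzyme gene MTHFD2L (-0.94 and -0.25) each passed with hairpin 1 only. In WiDr with hairpins PARM1 went the other way from AREG and EREG, at -1.93 (SE 0.0698) and -0.66 (SE 0.0642). With guides PARM1 was at 0.86 with guide 1 and -0.23 with guide 2. With guide 1 all 3 of these other genes passed as higher (0.54 to 1.19), beside 21.4% of all tested genes. With guide 2, 0 passed as higher and 1 as lower, beside 14.1% and 11.3%.

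**Figure D5:**
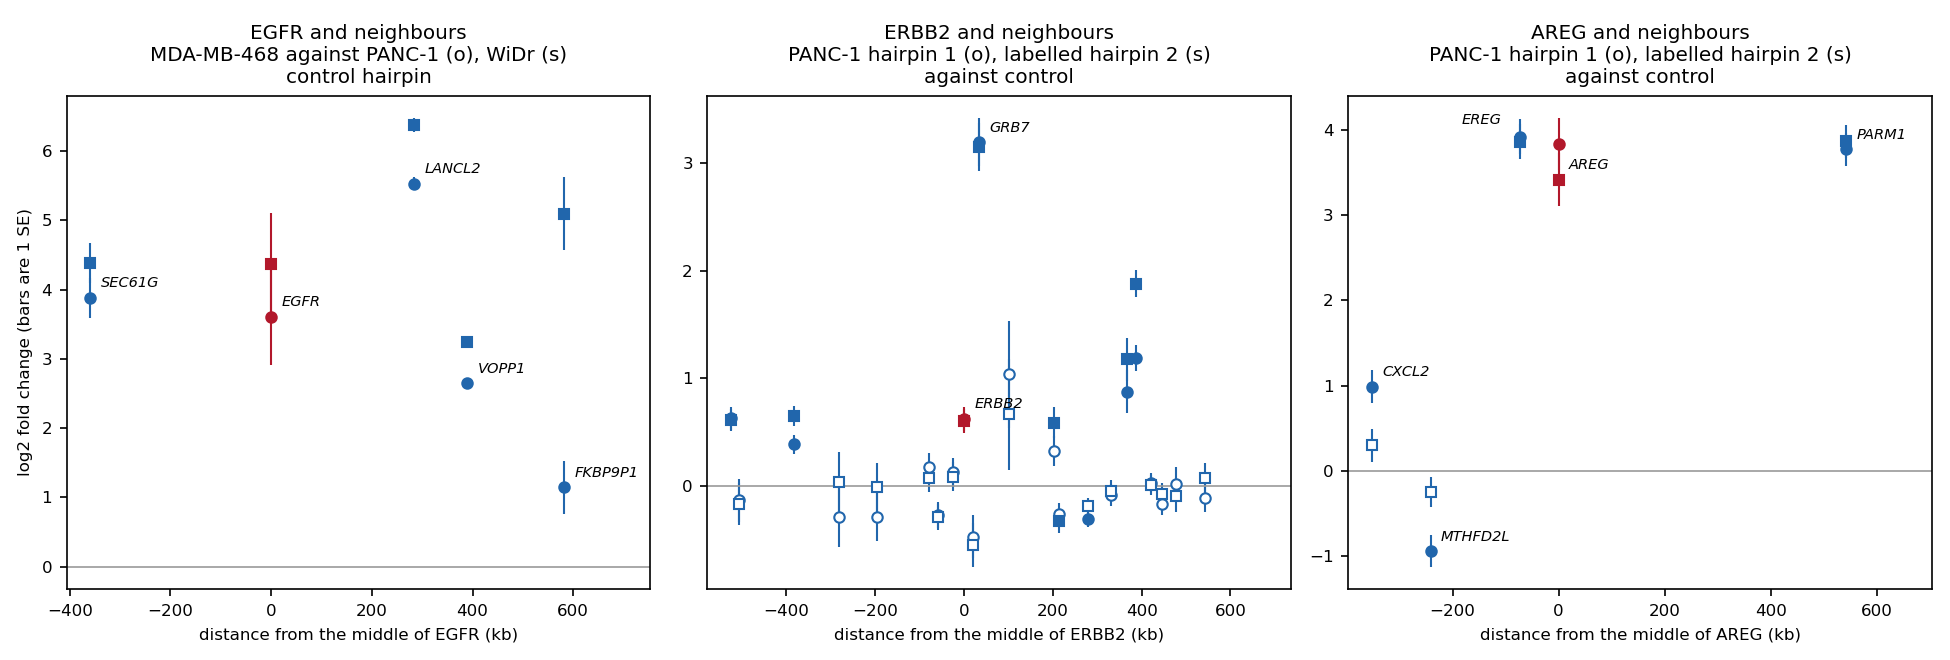
Log2 fold change (bars are 1 SE) of genes within 500 kb against distance from the middle of EGFR, ERBB2 or AREG in kb; circles and squares are the 2 comparisons named above each panel, filled where the edgeR adjusted p was under 0.05, and the member is red. The genes around EGFR are all above 0 in the contrasts between lines. With PANC-1 hairpins those around ERBB2 and AREG lie on both sides of 0. The neighbours of EGFR do so too with these hairpins (-0.48 to 0.71 and -0.67 to 0.45, not drawn).

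The likeness of profiles was taken as Pearson's r over the 12 group means, centred within each experiment, against 12581 genes tested in all experiments. The groups share lines and controls, so these are descriptions. Experiments were not scaled to equal spread. For AREG and EREG the PANC-1 changes (log2 3.42 to 3.92) therefore weigh more than those in WiDr (0.09 to 0.72). EREG was most like BHLHE40 (r = 0.990) and RAP1GAP2 (0.982), and AREG most like PHYKPL (0.983) and MC1R (0.976). AREG and EREG had r = 0.912 with each other, against 0.263 and 0.345 with TGFA and 0.402 and 0.267 with HBEGF. With EGFR, ERBB2 and ERBB3, AREG had 0.544, 0.633 and 0.685, and EREG 0.788, 0.717 and 0.700. EGFR was most like STRN (0.973) and NRIP1 (0.972), ERBB2 like BCKDK (0.967) and AGAP2 (0.966) and ERBB3 like PEX11G (0.947) and GRAMD2 (0.947). TGFA was most like TMBIM1 (0.962) and CAPN8 (0.948), and HBEGF like STYXL1 (0.943) and RSU1 (0.942). ERBB2 and ERBB3 had r = 0.771 with each other, while TGFA was at -0.15 with ERBB2 and -0.37 with ERBB3.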

How the data were processed

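The data are 36 poly-A RNA-seq libraries. The deposited values are expected counts per gene, made by the authors with Bowtie2 2.1.0 and RSEM 1.2.15 on hg38 per the submitters' processing notes (annotation and strand setting: not given in the sources used here). They were rounded to whole numbers. Each experiment of 9 libraries was fitted with edgeR 4.0.16 in R 4.3.3 (filterByExpr, TMM scaling, robust quasi-likelihood F test), and p values were adjusted over all tested genes by Benjamini-Hochberg, with 0.05 as threshold. A standard error is the log2 fold change divided by the square root of F. Line contrasts used the 9 control hairpin libraries, and differences of effects an interaction in 18 libraries, with the mean of both constructs as the effect. Replicates of a group differed by more than sampling noise (chi-square per degree of freedom 3.5 to 188), and the design text calls them biological replicates. The fits were tested on simulated data.

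Libraries were grouped by title; 4 of the 6 targeting guide libraries carry a genotype label that names the other guide. GENCODE 29 gave coordinates and lengths (23900 symbols matched), and RefSeq (GRCh38.p14) the bases before gene starts, with 9 of 10 members matched. The targeted gene itself is not reported here. Members and lists were chosen with earlier results of these data known. Named genes were all members, all other ERBB ligands, up to 4 genes per list and experiment that passed with both constructs in 1 direction at a mean of at least 5 CPM, neighbours within 500 kb of EGFR, ERBB2 and AREG at 1 CPM or more, and the 2 most like genes; ADAM17 and DUSP6 were picked from the lists after their values were seen. Alternatives were DESeq2 1.42.0, upper-quartile scaling, no filter, the replicate block, each construct fitted alone, all libraries in 1 fit, the genotype labels and leaving out each library, and, added after the data were seen, a transcript length correction and leaving out 2 PANC-1 libraries.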

Additional observations from a re-analysis of the deposited data

Results flagged for a closer look

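The effect of the hairpins, taken as the mean of both against the control, differed between lines for several members by an interaction test (edgeR, Benjamini-Hochberg over all genes); the other tested members did not pass. Between MDA-MB-468 and PANC-1, 4 of 9 tested members passed beside 23.9% of all genes: the effect in MDA-MB-468 was lower for AREG (-4.13, SE 0.401, adjusted p = 2.51e-06), EREG (-3.90, SE 0.697), ERBB3 (-1.03, SE 0.213) and ERBB2 (-0.93, SE 0.119). For ERBB2, 6 of 6 PANC-1 hairpin libraries were above every control.

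Between MDA-MB-468 and WiDr, 5 of 9 passed beside 18.2%: the effect in MDA-MB-468 was lower for AREG (-1.22, SE 0.223), HBEGF (-0.78, SE 0.193), ERBB3 (-0.67, SE 0.0858) and ERBB2 (-0.30, SE 0.0886, adjusted p = 0.0267) and higher for TGFA (0.52, SE 0.104). The ERBB2 call was lost with no filter on low counts (-0.25, adjusted p = 0.0941). For HBEGF the WiDr mean joins hairpin 1 (1.03) with hairpin 2 (0.09), which did not pass. These 2 hairpins differed from each other (-0.94). Between PANC-1 and WiDr, 4 of 9 passed beside 37.2%: the effect in PANC-1 was higher for EREG (3.44, SE 0.180), AREG (2.99, SE 0.273), ERBB2 (0.71, SE 0.113) and TGFA (0.65, SE 0.214, adjusted p = 0.0256). The TGFA difference rests on a fall in WiDr and a PANC-1 value that did not pass in itself.

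Within WiDr, 2 of 9 members differed between the effect of guides and that of hairpins, beside 41.6% of all genes. TGFA fell with both hairpins and rose with both guides, a difference of 0.78 (SE 0.0573, adjusted p = 2.33e-10). ERBB3 rose with both hairpins and was lower with guide 1, a difference of -0.51 (SE 0.0587, adjusted p = 2.90e-07). The 2 experiments use different controls, which are themselves apart for TGFA, and the part of the controls in these differences was not tested.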

How the results depend on the processing

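At library totals of 28371119 counts and more, members with few counts (ERBB4 everywhere, BTC, EGF, AREG and EREG in some lines) had wide errors or no test. Of the counts of members called, DESeq2, another scaling, the filter and the fit design moved those of few comparisons by over 1.5 times. With MDA-MB-468 hairpin 1 the count went from 0 to 1 with a transcript length correction and with all 36 libraries in 1 fit. With MDA-MB-468 hairpin 2 it went from 1 to 2 with DESeq2, upper-quartile scaling, the length correction and all 36 libraries in 1 fit, to 0 with the construct fitted alone, and ranged from 0 to 2 when a library was left out. With all 36 libraries in 1 fit, WiDr hairpin 2 against hairpin 1 fell to 1 (leaving out a library, 1 to 3), guide 2 to 1 and guide 2 against guide 1 to 2 (leaving out a library, 3 to 6). With the genotype labels as groups, guide 1 had 2, guide 2 had 0 and the comparison of guides 0. The cause of these shifts was not tested.

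Signs that turned belonged to values that had not passed or to the guide labels. With the genotype labels, guide 2 gave EGFR 0.18 and BTC 0.50, and guide 2 against guide 1 gave EGFR 0.13, ERBB2 -0.14, ERBB3 -0.15, AREG 0.22, EREG 0.30, TGFA 0.21, HBEGF 0.066, BTC 0.41 and EGF 0.47. With the length correction, ERBB3 became -0.060 between PANC-1 hairpins, 0.049 with guide 2 and -0.015 between WiDr controls, AREG 0.15 between WiDr hairpins, and EGFR 0.025 between the effects in MDA-MB-468 and WiDr. With no filter, ERBB2 and TGFA became 0.018 and 0.023 between PANC-1 hairpins; with upper-quartile scaling EGF between guides became 0.0002; and without replicate 1 of both PANC-1 groups HBEGF became -0.11.

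Leaving out a library turned these values: with MDA-MB-468 hairpin 1, EGFR (-0.085 to 0.92), EREG (-0.33 to 0.89) and HBEGF (-0.27 to 0.047); with hairpin 2, EGFR (-0.52 to 0.70), AREG (-0.42 to 0.20) and EREG (-0.88 to 0.34); between those hairpins, EGFR (-0.83 to 0.11). In PANC-1 they were HBEGF with hairpin 1 (-0.12 to 0.18) and, between hairpins, ERBB2 (-0.071 to 0.031), ERBB3 (-0.19 to 0.21), EREG (-0.18 to 0.048) and TGFA (-0.15 to 0.22). In WiDr they were ERBB2 with hairpin 1 (-0.051 to 0.015), EGF with hairpin 2 (-0.023 to 0.55), AREG between hairpins (-0.15 to 0.055), ERBB3 (-0.044 to 0.016) and BTC (-0.11 to 0.024) with guide 2, and EGF between guides (-0.15 to 0.20). Between lines they were EREG in MDA-MB-468 against PANC-1 (-0.39 to 0.85) and EGFR in PANC-1 against WiDr (-0.29 to 1.16).

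The labels give no pairing by replicate number. Deviations from the group means correlated at -0.184 to 0.565 in MDA-MB-468 where numbers were shared and otherwise at -0.547 to 0.469. The ranges were -0.608 to 0.088 and -0.282 to 0.432 in PANC-1. They were -0.153 to 0.082 and -0.135 to 0.141 with WiDr hairpins, and -0.041 to 0.137 and -0.156 to 0.056 with guides. Such overlapping ranges cannot decide whether samples were paired. With the replicate block, 4 members became 3 with each PANC-1 hairpin, where ERBB3 was lost (0.78 and 0.79), and 3 became 2 between WiDr hairpins, where EGF was lost. With MDA-MB-468 hairpin 2 the count stayed at 1, with ERBB3 in place of ERBB2. TGFA between PANC-1 hairpins turned to 0.006. The other counts were equal.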
